A study of Mus musculus with 4 samples.

Results

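The 8 basophil and mast cell genes Mcpt8, Cpa3, Ms4a2, Fcer1a, Il4, Il13, Cyp11a1 and Hdc were followed across 9363 single cells from whole mouse lung, in a matrix of 20076 gene symbols. All 8 were present in the matrix. They were picked because the small class of cells that carries them was nearly absent from the libraries of endothelial ERG knockout mice. Their levels in WT and ERG CKO lungs, and the number of cells that carry them, are therefore given as a description without a test, and tests were kept for cells outside that class.

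Basophils and mast cells are granulocytes that bind IgE through the high-affinity receptor FceRI, whose alpha chain (Fcer1a) holds the antibody and whose beta chain (Ms4a2) amplifies the signal. Cross-linking of bound IgE releases granules with histamine, made by histidine decarboxylase (Hdc), and proteases such as mast cell protease 8 (Mcpt8, typical of basophils) and carboxypeptidase A3 (Cpa3), and it induces the type 2 cytokines interleukin-4 (Il4) and interleukin-13 (Il13). Cyp11a1, the side-chain cleavage enzyme that opens steroid synthesis, is known from steroidogenic tissue and also from stimulated immune cells. In the lung, mast cells lie around airways and vessels, whereas basophils are mostly blood-borne.

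WT libraries came from 2 mice homozygous for floxed Erg (ERG fl/fl) without Cre, and ERG CKO libraries came from 2 mice with the same alleles and CDH5-CreER(T), a tamoxifen-inducible recombinase driven by the endothelial Cdh5 promoter. All 4 mice received 5 daily injections of 0.5 mg tamoxifen, and lungs were taken 90 days after the injections. The line was bred on a C57/BL6 background. The sex of these mice and their age at collection are not given in the sources used here. Libraries held 1852 to 3097 cells and 11263911 to 18646776 UMIs (unique molecular identifiers, each marking 1 captured RNA molecule), the median cell outside the class had 4612 to 4900.5 UMIs, and 7 cell barcodes occurred in more than 1 library. In endothelial cells, Erg itself was counted at 86.2 and 87.7 CPM (UMIs scaled to a common total per library) in the WT mice and at 105 and 82.1 CPM in the ERG CKO mice. The groups overlapped, so no loss of Erg RNA was seen in these counts. The sources used here do not give the part of Erg that is floxed. Whether the counts covered that part was not tested, so this level is no check of the labels.

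The 8 genes lie on 7 chromosomes, and Il4 and Il13 are neighbours on chromosome 11 (RefSeq, GRCm38.p6, Il4 at chr11:53612460-53618665 and Il13 at chr11:53631323-53634702). Since most of the 8 genes were found in the same cells, and since the GATA factor gene Gata2 was detected in 28 of 33 of those cells, the RefSeq promoter windows (250 bases before to 50 after a start site) were searched for the GATA motif AGATAA or its reverse complement TTATCT. All 8 genes had a window, 10 windows in all, and 4 genes had a match, in 4 windows. Among all 32851 windows of this length 11.2% held a match, and among the 27025 genes with such a window 12.7% did. The 4 windows are shown because they cover both FceRI chains, a granule protease and a cytokine, with each match in capitals and the sequence written 5′ to 3′ on the strand of the gene.
Ms4a2 (chr19:11623670-11623969, minus strand): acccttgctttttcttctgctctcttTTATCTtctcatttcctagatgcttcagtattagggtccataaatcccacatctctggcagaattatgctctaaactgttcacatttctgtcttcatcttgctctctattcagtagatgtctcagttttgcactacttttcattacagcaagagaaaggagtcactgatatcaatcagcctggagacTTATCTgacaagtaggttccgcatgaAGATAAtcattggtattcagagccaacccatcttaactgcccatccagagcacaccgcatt
Fcer1a (chr1:173227180-173227479, minus strand): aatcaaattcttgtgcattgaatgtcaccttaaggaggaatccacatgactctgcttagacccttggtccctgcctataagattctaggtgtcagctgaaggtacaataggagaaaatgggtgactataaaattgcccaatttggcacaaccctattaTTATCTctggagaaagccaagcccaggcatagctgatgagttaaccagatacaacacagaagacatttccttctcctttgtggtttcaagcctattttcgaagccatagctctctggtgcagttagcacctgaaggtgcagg
Cpa3 (chr3:20242132-20242431, minus strand): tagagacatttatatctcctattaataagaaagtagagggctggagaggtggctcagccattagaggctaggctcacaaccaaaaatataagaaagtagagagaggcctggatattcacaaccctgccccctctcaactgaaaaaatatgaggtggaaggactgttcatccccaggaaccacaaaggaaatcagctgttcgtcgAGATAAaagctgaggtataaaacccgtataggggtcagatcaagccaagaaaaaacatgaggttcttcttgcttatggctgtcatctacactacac
Il13 (chr11:53634653-53634952, minus strand): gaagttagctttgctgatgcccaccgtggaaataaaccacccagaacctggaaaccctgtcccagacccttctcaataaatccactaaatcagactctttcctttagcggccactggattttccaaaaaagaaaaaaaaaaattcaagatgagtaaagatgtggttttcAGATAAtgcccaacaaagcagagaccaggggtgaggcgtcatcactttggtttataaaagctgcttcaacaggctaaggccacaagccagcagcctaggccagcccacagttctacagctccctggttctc
Ms4a2 had 3 matches, of which the nearest began 11 bases before the start site, and 0.107% of all windows had at least 3. The match began 46 bases before the start of Cpa3, 81 before that of Il13 and 92 before that of Fcer1a. These matches describe the letters of the windows, and binding was not measured.

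Cells either carried most of the 8 genes or nearly none. Of 9363 cells, 8749 carried none, 579 carried 1, 2 carried 2 and 33 carried 3 or more. Of the 579 cells with a single gene, 529 carried Hdc. The 33 cells with at least 3 genes, called multi-member cells below, had a median of 6 genes, and 3 of them carried all 8. Just outside the limit lay 1 cell with 2 genes in WT replicate 1 and 1 in ERG CKO replicate 1, and just inside it lay 4 cells with 3 genes, 2 in each WT library.

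**Figure D1:**
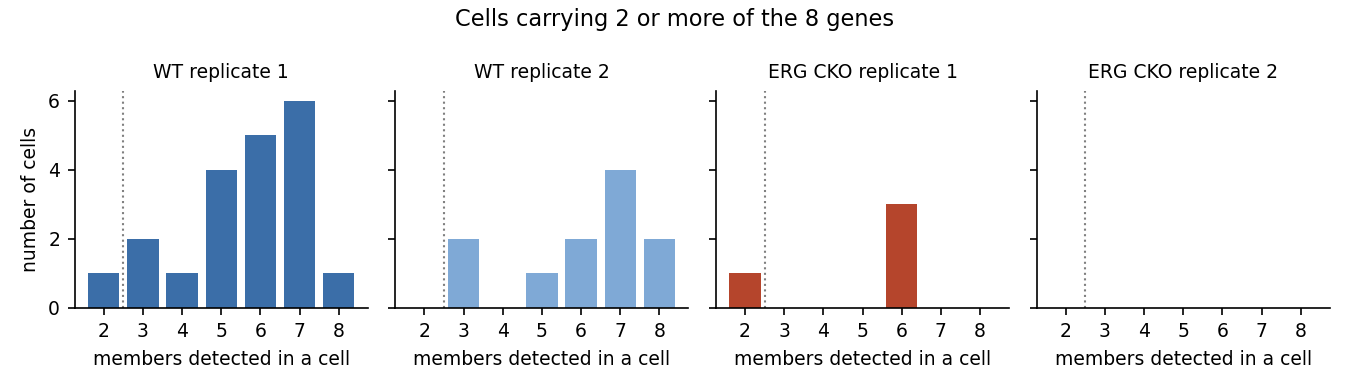
Number of cells (y axis) by number of the 8 genes detected in the cell (x axis, cells with 0 or 1 gene not drawn), 1 panel per library, with the dotted line at the limit for multi-member cells. Bars lie mostly at 5 to 8 genes in both WT libraries, ERG CKO replicate 1 has 3 cells at 6 genes, and ERG CKO replicate 2 has no bar.

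Multi-member cells numbered 19 of 2264 cells (0.839%, 95% Wilson interval 0.538 to 1.31%) in WT replicate 1 and 11 of 2150 (0.512%, 0.286 to 0.914%) in WT replicate 2. In ERG CKO replicate 1 there were 3 of 3097 (0.0969%, 0.0329 to 0.284%), and in ERG CKO replicate 2 there were 0 of 1852 (0%, 0 to 0.207%). Intervals cover counting error only. The mean share was 0.675% ± 0.232 (SD, n = 2) in WT and 0.0484% ± 0.0685 (SD, n = 2) in ERG CKO, and both ERG CKO libraries lay below both WT libraries. After thinning every cell to 1000 UMIs, which left out 123 to 433 shallower cells per library, 13 and 10 multi-member cells were found in the WT libraries, with 3 and 0 in ERG CKO.

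The multi-member cells formed 1 cluster without help from the genes that defined them. When the 8 genes and the lists of basophil and mast cell genes were left out of the variable genes, 32 of the 33 cells fell into a single cluster of 36 cells. This cluster held 20 and 12 cells of the WT libraries, 4 of ERG CKO replicate 1 and 0 of ERG CKO replicate 2. The remaining cell, which carried 7 of the 8 genes and 10451 UMIs, fell among NK cells. None of the 33 was among the 60 cells (0.641%) called doublets, and none had a barcode found in a second library. Their median depth of 4525, 4574 and 3816 UMIs in the 3 libraries that held them was close to that of other cells, at fewer detected genes, with medians of 1340, 1366 and 1247 against 1832, 1794 and 1765. Mitochondrial UMIs made up a median of 1.34 to 2.74% in them and 4.39 to 5.43% in the other cells of these libraries.

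The receptor chains were carried by the same cells. Fcer1a was found in 17, 9 and 2 multi-member cells of WT replicates 1 and 2 and ERG CKO replicate 1, with 65, 45 and 5 UMIs, and Ms4a2 in 17, 8 and 3, with 58, 38 and 8 UMIs. Both chains were detected together in 25 of the 31 cells with either. Within multi-member cells Ms4a2 stood at 711, 709 and 675 CPM and Fcer1a at 796, 839 and 422 CPM. The ERG CKO values rested on 8 UMIs of Ms4a2 (exact Poisson interval 291 to 1330 CPM) and 5 UMIs of Fcer1a (137 to 985 CPM). These counts are too few to compare levels per cell between the groups. Over the whole lung Fcer1a was at 4.69 and 3.46 CPM in the WT libraries, with 0.375 and 0 in ERG CKO, and Ms4a2 at 3.94 and 2.86 CPM in the WT libraries, with 0.429 and 0 in ERG CKO. In ERG CKO replicate 2, where both chains had 0 UMIs, a count of 3 UMIs would stand at 0.266 CPM. In such whole-lung levels, fewer cells of a type and less RNA per cell cannot be told apart.

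The granule proteases differed in how evenly the libraries held them. Cpa3 was found in 16 of 19, 9 of 11 and 3 of 3 multi-member cells, with 57, 44 and 5 UMIs, which is 698, 820 and 422 CPM of these cells. Mcpt8 was found in 9 of 19 cells of WT replicate 1 with 22 UMIs, in 10 of 11 cells of WT replicate 2 with 101 UMIs, and in 2 of 3 cells of ERG CKO replicate 1 with 8 UMIs. Its level in the cells was 270 CPM (exact Poisson interval 169 to 408) in WT replicate 1 against 1883 CPM (1534 to 2288) in WT replicate 2. The intervals of the WT libraries did not overlap, and the ERG CKO value of 675 CPM (291 to 1330) lay between them. Such intervals take UMIs as independent and leave out the spread between cells. A single cell of WT replicate 2 held 37 of the 101 Mcpt8 UMIs. In the whole lung, Mcpt8 was at 1.5 and 7.59 CPM in the WT libraries, with 0.429 and 0 CPM in ERG CKO, and Cpa3 at 4.15 and 3.31 CPM in the WT libraries, with 0.375 and 0 CPM in ERG CKO.

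The cytokines were carried by fewer cells and were concentrated in a few of them. Il4 was found in 8, 6 and 2 multi-member cells of WT replicates 1 and 2 and ERG CKO replicate 1, with 12, 49 and 5 UMIs. Il13 was found in 5, 4 and 0 of them, with 11, 60 and 0 UMIs, and 1 cell of WT replicate 2 held 39 of its 60 UMIs. Only 4 of the 21 cells with either cytokine had both. The Il13 level in the cells was 135 CPM (67.3 to 241) in WT replicate 1 and 1119 CPM (854 to 1440) in WT replicate 2. The Il4 level was 147 CPM (76 to 257) and 914 CPM (676 to 1208). As for Mcpt8, these intervals did not overlap, but they leave out the spread between cells. The median per cell was 0 UMIs of Il13 in both WT libraries, and 0 and 1 UMIs of Il4. With 0 UMIs of Il13 in the 3 cells of ERG CKO replicate 1, the exact Poisson interval reached up to 311 CPM.

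Cyp11a1 was detected in all 33 multi-member cells and Hdc in 32. Cyp11a1 had a median of 4 UMIs per cell in WT replicate 1, 9 in WT replicate 2 and 3 in ERG CKO replicate 1, at 1238, 1697 and 1012 CPM of these cells, and the counting intervals of the 3 libraries overlapped (1008 to 1504, 1366 to 2083 and 523 to 1769). Hdc had a median of 11, 20 and 19 UMIs per cell, at 3284, 4587 and 4050 CPM. Its intervals were 2903 to 3702, 4031 to 5197 and 2986 to 5370 CPM, and those of the WT libraries did not overlap. The whole-lung level of Cyp11a1 was 7.07 and 6.92 CPM in the WT libraries, with 0.644 and 0.0888 CPM in ERG CKO.

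**Figure D2:**
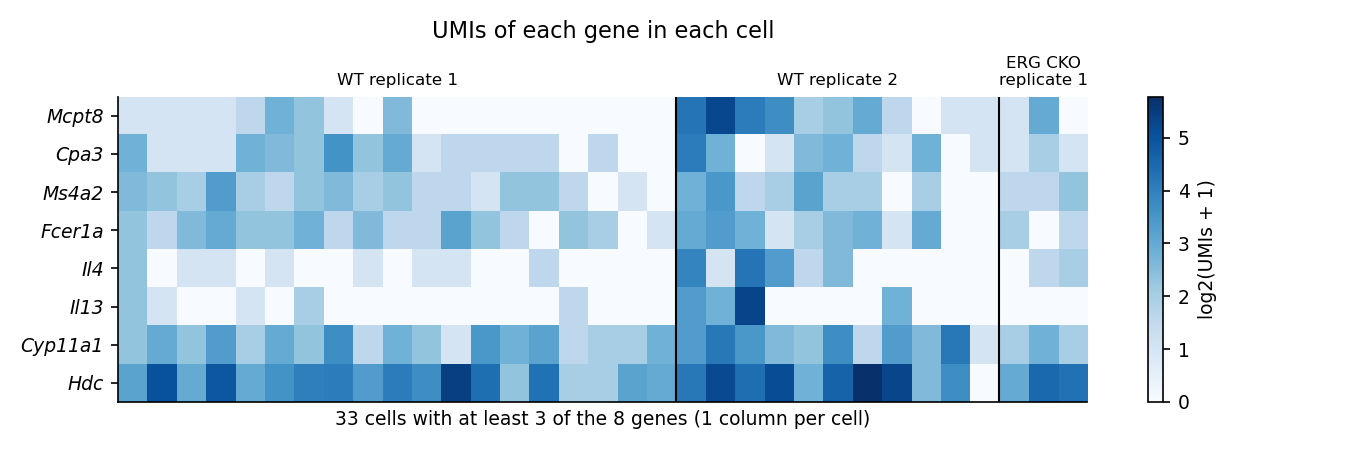
UMIs of each of the 8 genes (rows) in each of the 33 multi-member cells (columns, grouped by library and ordered by number of genes), on the scale log2(UMIs + 1). Cyp11a1 fills its row and Hdc all but 1 cell of it, while Mcpt8, Il4 and Il13 are darker in WT replicate 2.

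Most genes of the group were nearly confined to the multi-member cells, which is in part what chose those cells. They held 100% of the UMIs of Mcpt8 (131) and Ms4a2 (104), 97.6% of those of Cyp11a1 (204 of 209 UMIs), 94.6% for Cpa3 (106 of 112), 94.3% for Fcer1a (115 of 122), 84.5% for Il13 (71 of 84) and 65.3% for Il4 (66 of 101). Of Hdc they held 15.7% (562 of 3573). Mcpt8 and Ms4a2 had no UMI in any of the 15 other classes and clusters, Fcer1a none in 13, Cpa3 and Cyp11a1 none in 12 each and Il13 none in 11. Among 830 B cells, which are not a known source of these genes and had a median of 4506.5 UMIs, 7 carried Hdc, 1 carried Il4 and none carried another of the genes.

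Outside the multi-member cells, the cytokines were spread thinly over several classes. A cluster of 374 cells with ILC2 and T cell markers, led by Icos and Ctla4 and left unnamed because it matched both, held 10 UMIs of Il13 in 5 cells and 9 UMIs of Il4 in 8 cells. Its Il13 UMIs were 2 and 0 in the WT libraries, with 5 and 3 in ERG CKO. Endothelial cells held 11 UMIs of Il4 in 10 of 2507 cells and T cells 7 in 3 of 1270 cells. The same cluster of 374 cells held 6 UMIs of Fcer1a and 3 of Cpa3. These are 1 or a few UMIs per cell, and free RNA in the droplets was not measured here.

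**Figure D3:**
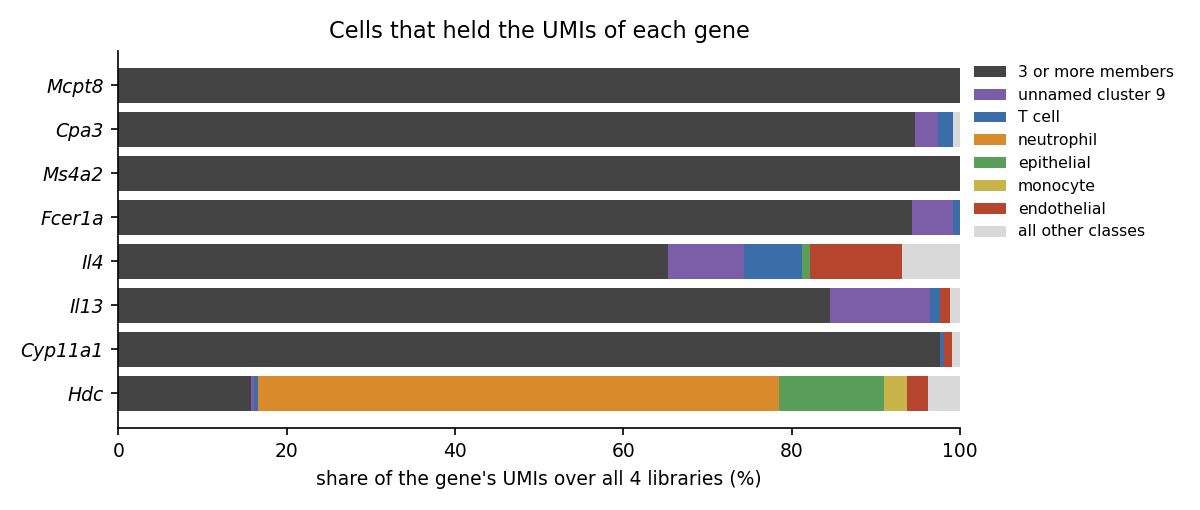
Share of each gene's UMIs (x axis, %, all 4 libraries together) held by multi-member cells, by other named classes and by the unnamed cluster with ILC2 and T cell markers (cluster 9). The dark bars of multi-member cells fill 94.3% or more of the rows of Mcpt8, Cpa3, Ms4a2, Fcer1a and Cyp11a1, and 15.7% of that of Hdc, where neutrophils take the widest stretch.

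Hdc was carried by other cell types too. Neutrophils held 2211 UMIs in 256 of 264 cells, and epithelial cells held 445 in 62 of 214. By library the level of Hdc was 3974 CPM ± 655 (SD, n = 3) in multi-member cells, 2132 ± 459 (SD, n = 4) in neutrophils and 147 ± 45.3 (SD, n = 4) in epithelial cells, and the ranges of these 3 over libraries did not overlap. Monocytes followed at 20 CPM ± 11 (SD, n = 4), below every epithelial value. From monocytes down, through dendritic cells at 8.26 CPM to NK cells at 0.866 CPM, the ranges of neighbouring classes overlapped, so their order is not resolved. Within the epithelium, a cluster of 25 cells led by the cilia genes Ccdc153 and Tmem212 held 338 of the 445 UMIs, in 24 of its cells, at 810 and 295 CPM in the WT libraries, with 656 and 310 CPM in ERG CKO. A cluster of 52 cells led by the alveolar type 2 gene Sftpc held 96 UMIs.

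Over the whole lung, 7 of the 8 genes had both ERG CKO libraries below both WT libraries, and Hdc had both above. Of all 20066 detected genes, 18.1% lay that way below and 14.8% above. The genes were chosen on this contrast, so nothing is read from these counts. The mean whole-lung level was 6.99 CPM ± 0.107 (SD, n = 2) in WT and 0.366 ± 0.392 in ERG CKO for Cyp11a1, 4.07 ± 0.870 and 0.188 ± 0.265 for Fcer1a, and 3.4 ± 0.767 and 0.215 ± 0.303 for Ms4a2. For Il4 the mean was 2.87 CPM ± 2.43 in WT and 0.775 ± 0.0341 in ERG CKO, the WT libraries at 1.16 and 4.59 CPM lying further apart than WT replicate 1 lay from ERG CKO. For Il13 it was 2.81 ± 2.62 in WT and 0.267 ± 0.00128 in ERG CKO.

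**Figure D4:**
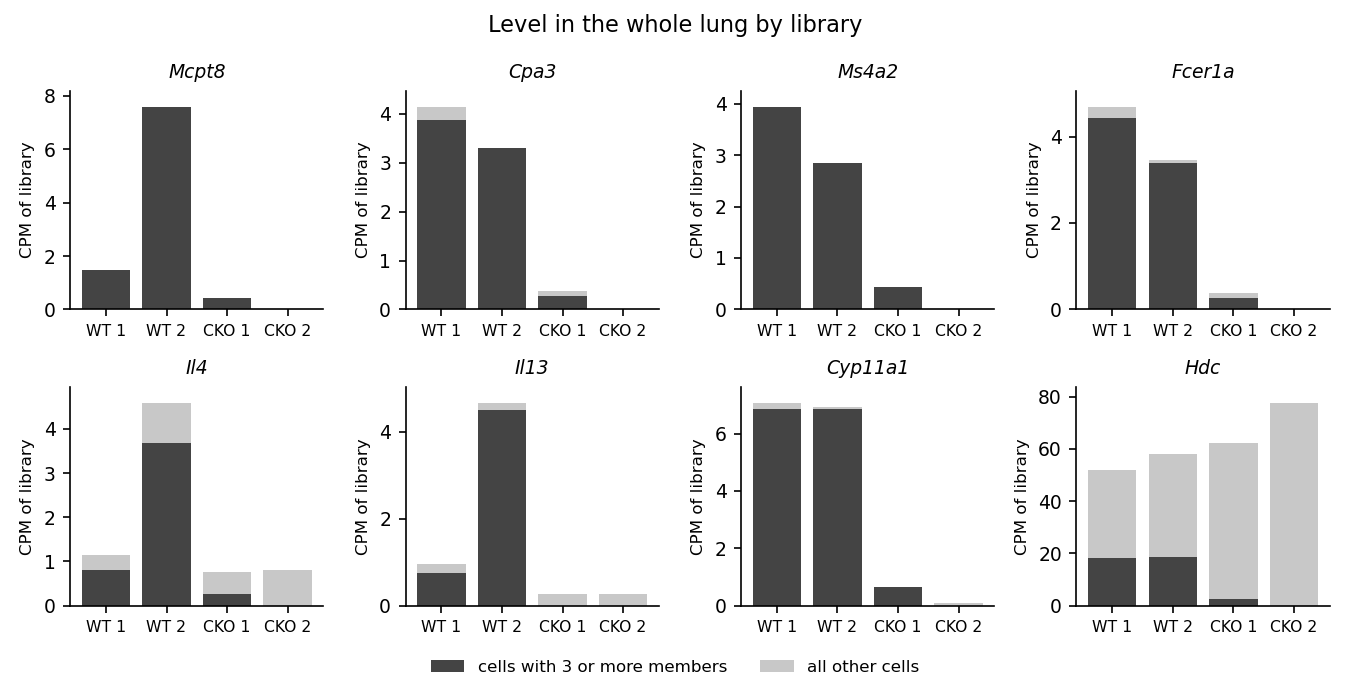
Whole-lung level of each gene (y axis, CPM of the library, each panel with its own scale starting at 0) in the 4 libraries, stacked as UMIs in multi-member cells (dark) and in all other cells (light). Dark bars make up nearly all of Mcpt8, Cpa3, Ms4a2, Fcer1a and Cyp11a1 in WT, and Hdc is mostly light, at 34.0 to 77.6 CPM in cells outside the class.

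Several chemokine and receptor genes shared the pattern of the 8. Ranked by the share of their UMIs that lay in the multi-member cells of the 2 WT libraries, among 2589 genes with at least 30 UMIs in the WT libraries and at least 5 carrying multi-member cells, the nearest were Defb40, a beta-defensin, with 100% (47 of 47 UMIs, but in 7 cells only), Cd200r3, an activating receptor of basophils and mast cells, with 95.9% (47 of 49), and Csrp3, a LIM-domain protein known from muscle, with 87.5% (35 of 40). The chemokine genes Ccl3 and Ccl4 had 62.9% (3642 of 5789) and 62.7% (5246 of 8370) of their WT UMIs in these 30 cells, which were 0.680% of WT cells. Slc18a2, the transporter that loads histamine into vesicles, had 62.3% and Il6 52.6%, followed by Ifitm1 (28.4%), C3ar1, the receptor for complement C3a (25%), and Irg1, the enzyme of itaconate synthesis (24.5%). The median over the 2589 genes was 0.506%. In the 3 cells of ERG CKO replicate 1, Ccl3 and Ccl4 were carried by all 3, with 408 and 627 UMIs, Cd200r3, Csrp3 and Slc18a2 by all 3 as well, and Defb40 by none.

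Of the basophil list, 23 of 30 genes were at least 2-fold higher in multi-member cells than in all other cells (log2 of CPM + 10), against 3.09% of all genes, and the median log2 difference was 2.61 against −0.18 over all genes. Beside Ccl3 and Ccl4, the most abundant were Ifitm1 with 719 UMIs, Il6 with 550, Cd9 with 282 (1917 CPM against 1407 in other cells), Osm, the cytokine oncostatin M, with 277, Csf1, the macrophage growth factor, with 179 in 25 cells, Cd63, a granule membrane protein exposed on degranulation, with 153, Csf2rb, the shared beta chain of the receptors for interleukin-3 and GM-CSF, with 113 in 28 cells, and Gata2 with 98. Prss34, another basophil protease, had 1 UMI, and Ms4a3 and Ptgdr2 had none. Ltc4s, the leukotriene C4 synthase, was the 1 gene of the list at least 2-fold lower, with 0 UMIs in the 33 cells against 65.7 CPM in other cells. Since the cells were chosen by basophil and mast cell genes, these are descriptions of the cells and not tests.

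Of the 14 listed mast cell genes 6 were measured, of which 4 had 0 UMIs in the same cells and 1 had a single UMI. Against other cells, 1 was at least 2-fold higher and 3 at least 2-fold lower, where 3.09% and 20% of all genes were. Kit, the stem cell factor receptor that mature mast cells keep and mature basophils mostly lose, had 1 UMI in 1 of 33 cells, whereas endothelial cells carried it in 1487 of 2507. Cma1 and Mcpt4, the chymases, and Mitf and Hpgds had 0 UMIs, but Mcpt4 stood at only 0.121 CPM in other cells. Of the 867 Cma1 UMIs in the lung 841 lay in NK cells. Gzmb, also a gene of cytotoxic lymphocytes, was the higher one, with 85 UMIs in 11 cells (578 CPM against 68.8). The tryptase genes (Tpsb2, Tpsab1 and Tpsg1), Mcpt1, Mcpt2, Mcpt9 and the receptors Mrgprb1 and Mrgprb2 were not among the gene symbols of the matrix. The mast cell list was therefore checked in part only. Of the ILC2 list, 5 of 15 genes were detected in the 33 cells. Here 1 was at least 2-fold higher than in other cells and 5 at least 2-fold lower (3.09% and 20% of all genes). The higher one was Il1rl1, the interleukin-33 receptor, which is also on the basophil list, with 11 UMIs in 8 cells (74.8 CPM against 6.89). Il7r had 18 UMIs in 10 cells (122 CPM against 146), and Gata3, Areg and Il5 had 0. Of the eosinophil list, 3 of 11 measured genes were detected, 2 were at least 2-fold higher and 3 at least 2-fold lower (again 3.09% and 20% of all genes). Higher were Alox15, a lipoxygenase, with 12 UMIs in 9 cells (81.6 CPM against 0.485, 30% of its UMIs in the lung) and Ccr3, the eotaxin receptor, with 3 UMIs (20.4 CPM against 0.433), which fell just under 2-fold without WT replicate 2. Siglecf had 1 UMI, and Epx, Prg2, Ear1 and Ear2 had 0.

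The signalling chain below FceRI was mostly present at the level of other cells. Of 26 listed genes 25 were detected in multi-member cells, 2 were at least 2-fold higher and 4 at least 2-fold lower than in all other cells, with a median log2 difference of 0.08, where 3.09% of all genes were that much higher and 20% that much lower. Higher were Lat2, an adaptor of the receptor, with 82 UMIs in 25 cells (557 CPM against 26.3), and the immediate-early gene Egr1 with 499 UMIs in 30 cells (3392 CPM against 811). Of the Egr1 UMIs 408 lay in WT replicate 1, at 5000 CPM against 920 in its other cells, while WT replicate 2 stood at 970 CPM against 968 and ERG CKO replicate 1 at 3291 CPM against 726. Without WT replicate 1, Egr1 was at 1390 CPM against 774, which is under 2-fold, and 4 genes of the list were at least 2-fold higher (Lat2, Fcer1g, Sos1 and Prkcd). Lower were Syk, the kinase recruited by the receptor (34.0 CPM against 104), Plcg1, Itpr1 and Orai1. Fcer1g, the gamma chain shared with other receptors, was detected in all 33 cells at 1441 CPM against 762 CPM in other cells.

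To ask whether the genes also differed where the class could not drive the result, the 33 cells were taken out and UMIs were summed per library. At a limit of 0.05 on the adjusted p, the edgeR quasi-likelihood test called 0 of 14143 genes (0%), DESeq2 called 151 (1.07%), and edgeR without a filter on low counts called 127 of 20053 (0.633%), while 1074 genes had an unadjusted p of at most 0.05 in edgeR. With 2 mice per group, p-values measure the spread between these few mice. Of the 8 genes, Il4 and Hdc had enough UMIs to be tested and neither was called by edgeR. Il4 stood at 0.342 and 0.906 CPM in the WT libraries, with 0.483 and 0.799 CPM in ERG CKO, and the groups overlapped (log2 fold change 0.00, SE 0.98, edgeR adjusted p = 0.9998). Hdc stood at 34.0 and 39.6 CPM in the WT libraries, with 59.8 and 77.6 CPM in ERG CKO without overlap, yet missed the threshold of edgeR (log2 fold change 0.90, SE 0.18, edgeR adjusted p = 0.322) and passed that of DESeq2 (adjusted p = 0.00798) and of edgeR without the filter (adjusted p = 0.0435). The other 6 genes had 0 to 13 UMIs over the 4 libraries outside the class and did not pass the filter on low counts.

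Most of the Hdc UMIs outside the class lay in neutrophils. Neutrophils made up 1.68 and 2.65% of cells in the WT libraries, with 2.65 and 4.70% in ERG CKO, and they held 54.2 and 59.7% of the Hdc UMIs outside the class in the WT libraries, with 78.1 and 86.6% in ERG CKO. WT replicate 2 and ERG CKO replicate 1 had nearly the same share of neutrophils at different Hdc levels. With neutrophils left out as well, Hdc stood at 15.7 and 16.2 CPM in the WT libraries, with 13.4 and 10.7 CPM in ERG CKO, so the order of the groups turned round (log2 fold change −0.41, SE 0.16, edgeR adjusted p = 0.676, a fit chosen after seeing the data). Within neutrophils it was at 2211 and 1462 CPM in the WT libraries, with 2389 and 2468 CPM in ERG CKO, with no call (log2 fold change 0.45, SE 0.25, edgeR adjusted p = 0.982, with 0 of 2956 genes called, 0%). With 1 library left out, this log2 fold change ranged from 0.16 (no WT replicate 2) to 0.83 (no WT replicate 1).

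Cytokines and adhesion molecules that act on basophils and mast cells were then compared outside the class. Of 27 listed genes 21 were tested and edgeR called 0, as did DESeq2, with 2 at an unadjusted p of at most 0.05 (9.52%, where 7.59% of all 14143 genes were). These were Tslp, an epithelial and stromal cytokine that acts on basophils, at 6.15 and 4.6 CPM in the WT libraries, with 2.36 and 2.13 CPM in ERG CKO (log2 fold change −1.25, SE 0.26, edgeR adjusted p = 0.338), and Ccl2, a monocyte chemokine, at 12.2 and 18.7 CPM in the WT libraries, with 24.7 and 29.1 CPM in ERG CKO (log2 fold change 0.79, SE 0.25, edgeR adjusted p = 0.554). Neither pair of groups overlapped, and both genes failed the correction. The median log2 fold change was −0.09 against 0.00 over all tested genes. Of the FceRI signalling list 26 genes were tested, with 0 calls by either tool and 4 (15.4%) at an unadjusted p of at most 0.05 (Syk and Inpp5d with positive and Egr1 and Egr2 with negative log2 fold changes). Of the ILC2 list 14 were tested, with 0 calls by either tool and 4 (28.6%) unadjusted (Gata3, Icos, Arg1 and Cxcr6, at log2 fold changes of −0.46, −0.54, −1.33 and −0.66). Of the eosinophil list 6 were tested, with 0 calls by either tool and 0 unadjusted. The median log2 fold change was 0.08, −0.30 and 0.17 for these 3 lists.

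For 7 of these ligands the comparison was repeated in the class that expressed each most, and 5 could be tested. In their classes edgeR called 0 of the 5, DESeq2 called 0, and 0 had an unadjusted p of at most 0.05. Kitl, the ligand of Kit, stood at 497 and 477 CPM in endothelial cells of WT and at 369 and 491 CPM in those of ERG CKO, and the groups overlapped (log2 fold change −0.22, SE 0.16, edgeR adjusted p = 0.569). With 1 library left out, the Kitl difference ranged from −0.42 (no ERG CKO replicate 2) to −0.055 (no ERG CKO replicate 1). Cxcl12, a chemokine for many leukocytes, stood at 681 and 480 CPM in endothelial cells of WT and at 239 and 513 CPM in those of ERG CKO, which also overlapped (log2 fold change −0.68, SE 0.32, adjusted p = 0.362). Of all genes, edgeR called 3.11% in endothelial cells, 0.0212% in macrophages and 0% in epithelial cells and neutrophils. The Cxcl12 difference was −1.30 without ERG CKO replicate 2 but −0.25 without ERG CKO replicate 1. It was −0.40 without WT replicate 1 and −0.91 without WT replicate 2. Without the filter on low counts it was −0.67 (SE 0.15, edgeR adjusted p = 0.000413). Its size thus turned on the library left out, and the call on the filter as well.

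The alarmin gene Il33 stood at 99.4 and 95.2 CPM in epithelial cells of WT and 165 and 124 CPM in those of ERG CKO, with no call (log2 fold change 0.28, SE 0.22, edgeR adjusted p = 0.802). Epithelial cells had a median of 18045 and 20738.5 UMIs in WT but 2370 and 725 UMIs in ERG CKO, and the clusters that make up the class differed as well. A cluster of 137 cells led by Scgb1a1 and Ager held 27 and 9 of its cells in the WT libraries, with 46 and 55 in ERG CKO, and the Sftpc cluster held 21 and 14 in the WT libraries, with 9 and 8 in ERG CKO. The part of depth and makeup in the Il33 value was not tested. Il18 stood at 417 and 436 CPM in macrophages of WT and 415 and 624 CPM in those of ERG CKO (log2 fold change 0.29, SE 0.18, adjusted p = 0.957). Csf1 in neutrophils was at 205 and 168 CPM in the WT libraries, with 170 and 284 CPM in ERG CKO (log2 fold change 0.32, SE 0.31, adjusted p = 0.982). In both, the groups overlapped and replicate 2 of ERG CKO was the highest library. Tslp, led by fibroblasts, and Csf2, led by epithelial cells, had 44 and 29 UMIs over the 4 libraries in these classes and did not pass the filter.

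**Figure D5:**
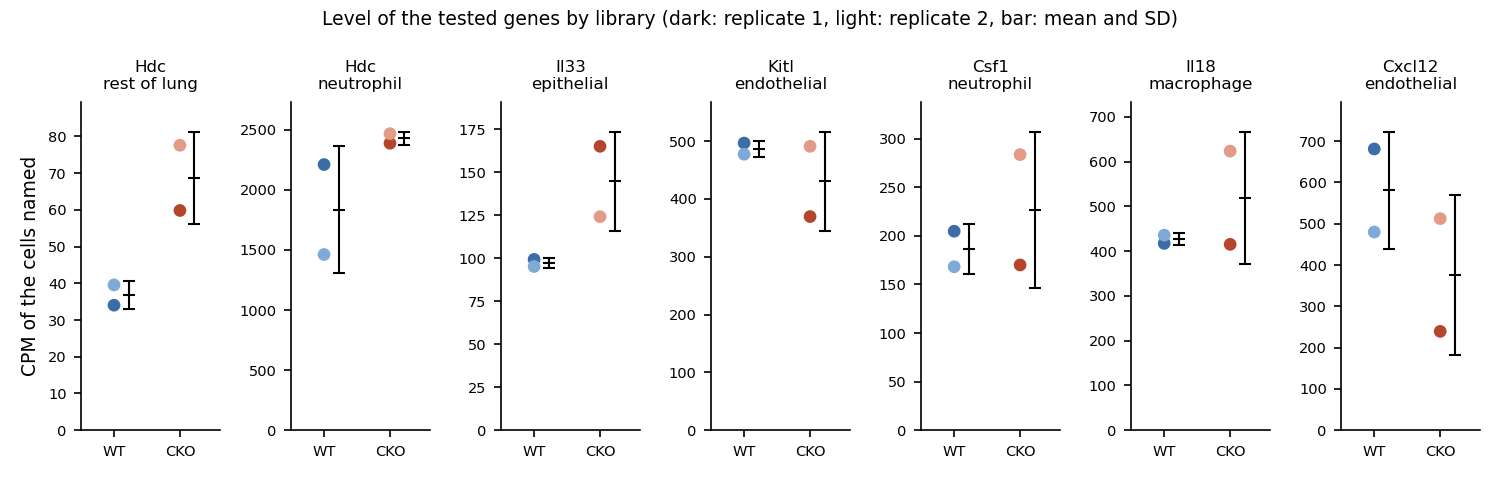
Levels (y axis, CPM of the cells named above each panel, from 0) of Hdc in the lung without multi-member cells and in neutrophils, and of 5 ligands in their leading class, with 1 point per library and the mean and SD of each group beside the points (n = 2). Groups are apart for both Hdc panels and Il33 and overlap for Kitl, Csf1, Il18 and Cxcl12, and no panel passed the edgeR threshold.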

How the data were processed

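The authors digested whole lungs to single cells, encapsulated them on the 10x Genomics GemCode platform and deposited raw UMI counts per gene and cell for 4 libraries in 1 matrix. The submitters' processing notes name Cell Ranger 3.1.0 and the mouse build mm10. Every cell held at least 500 UMIs from 300 genes or more, and none was removed. Doublets were called with Scrublet (scanpy 1.11.5) and kept, with their removal as an alternative.

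The 8 genes, the gene lists and the tests were chosen with earlier results of these data known. Cells were clustered in Seurat 5.3.0 (CCA alignment, 2000 variable genes, 30 dimensions, resolution 0.8) and named from marker lists, with at least 3 markers per name. No annotation by the study was used, so a difference from it may come from rebuilt names. Counts were summed per library and tested in R 4.3.3 with the edgeR 4.0.16 quasi-likelihood test (TMM, filterByExpr), Benjamini-Hochberg adjusted over all genes, which was checked on simulated counts. SE is the log2 fold change divided by the square root of F. DESeq2 1.42.0 was an alternative, and a fit without neutrophils and the lists with each library left out were added after seeing the data. Class fits needed 20 cells in every library. All 8 genes were named, with the 10 genes of nearest pattern, genes called in each list, the 10 most abundant basophil genes and the mast cell genes. Further genes of the lists that stand at or near 0 or past 2-fold were named after their values were seen. Classes whose ranges did not overlap, and the 2-fold comparison of cells, carry no test. Positions and promoters are from RefSeq, GRCm38.p6.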

Additional observations from a re-analysis of the deposited data

How the results depend on the processing

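The lower share of multi-member cells in ERG CKO kept its direction under all alternatives tried (2 or 4 genes per cell, thinning, limits on mitochondrial share or detected genes, doublets left out, cells with a Ptprc UMI, the cluster in place of the limit on genes), with differences of −0.695 to −0.502 percentage points against −0.627, and of −0.791 to −0.463 when 1 library was left out. The class was picked for this contrast, and most alternatives recount the same 33 cells. The direction was thus largely fixed in advance and is no support for a difference, which was not tested. Counts of genes called outside these cells moved most. Against 0 with edgeR, 151 were called with DESeq2, 127 without the filter on low counts, 1 with a replicate block and 1 to 38 with 1 library left out. With neutrophils left out as well, an alternative chosen after seeing the data, edgeR called 4, and the log2 fold change of Hdc went from 0.90 to −0.41. The cause was not tested. Where a group was left with 1 library, that library was assumed to vary like those of the other group. Among the 8 genes, 1 (Hdc) was called with DESeq2 and 1 without the filter. Among ligands in their leading class, 1 (Cxcl12) was called without the filter (log2 fold change −0.67) and 0 to 1 with a library left out. In the comparison of multi-member cells with other cells, leaving out 1 library, added after seeing the data, gave 2 to 4 higher genes of the FceRI signalling list, 1 to 2 higher of the eosinophil list and 1 to 2 lower of the basophil list (Stat5a in addition, without WT replicate 1), and moved no other list's count by over 1.5 times. Signs of 3 other uncalled log2 fold changes turned. That of Il4 outside the class went from 0.00 to −0.073 with the limit at 2 genes, to −0.0069 with doublets left out, and to between −0.57 (no WT replicate 1) and 0.89 (no WT replicate 2) with a library left out, being −0.35 when ERG CKO replicate 2 was dropped. Dropping that library also took Csf1 in neutrophils to −0.035 (range −0.035 to 0.63) and Il18 in macrophages to −0.031 (range −0.031 to 0.57). The replicate block changed no other call. Its numbers are not known to pair mice, and deviations of same-numbered libraries correlated at 0.235 with only 2 pairs. With 33 cells, 3 of them in ERG CKO, depth limits any statement on levels within the class in ERG CKO.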
